A study of Mus musculus with 7 samples.

Results

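The libraries described here are the 6 that cover the acute phase after status epilepticus (SE) in mouse plasma, and the question was which Ago2-bound miRNAs differed from control in the same direction at every acute time-point. The series holds 7 libraries of small RNA that was recovered from plasma with an antibody to Ago2, and the 6 used here are the SE libraries of 4 h, 8 h and 24 h and the control libraries of the same times. SE was triggered with kainic acid microinjected into the amygdala of adult male C57BL/6JOlaHsd mice (c57 in the labels), and control mice received PBS by the same route. SE mice carried a guide cannula and surface EEG electrodes and were given midazolam or lorazepam to limit mortality, and whether control mice received either drug is not stated in the sources used here. Seizure, drug and kainic acid cannot be told apart in these libraries. Each library was a pool of plasma from 10 mice, and plasma with a high haemolysis reading had been left out before pooling. With 1 pool for each treatment and time, the 3 libraries a side are time-points and not replicates, and no difference has a replicate check. Of 640 miRNAs counted, 137 reached 50 CPM, a read count normalised to library size, in at least 3 of the 6 libraries. The miRNAs described are the 23 of these whose 3 SE levels all lay above, or all lay below, the 3 control levels. Levels are CPM on library sizes adjusted by the trimmed mean of M-values (TMM), and lists of levels are always in the order 4 h, 8 h and 24 h.

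miRNAs are short RNAs that are cut from hairpin precursors and loaded into Argonaute proteins, of which Ago2 is the member with slicing activity. Bases 2 to 8 of the mature strand, the seed, pair with target mRNAs, so miRNAs with the same seed share many targets. In plasma, a large pool of miRNA travels outside vesicles while bound to Ago2, which shields it from ribonucleases, and blood cells, liver, muscle and, after injury, brain are among its known sources. In a plasma pool, a greater number of releasing cells and a greater release from each cell cannot be told apart.

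Mature sequences of selected miRNAs are shown because some of their relatives with the same seed were not selected, their SE and control levels overlapping. They are RefSeq sequences of GRCm38.p6, which holds 17 of the 23 names, written with the seed in capitals. The widest separations above control belonged to miR-298-5p, miR-106b-5p, miR-30a-3p, miR-182-5p, miR-532-5p and miR-133b-3p, of which these have a sequence in the table.
miR-298-5p: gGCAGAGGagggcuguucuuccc
miR-106b-5p: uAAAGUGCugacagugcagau
miR-30a-3p: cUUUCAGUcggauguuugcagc
miR-182-5p: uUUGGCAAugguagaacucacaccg
miR-133b-3p: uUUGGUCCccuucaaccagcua
Abundant miRNAs above control are shown next.
miR-192-5p: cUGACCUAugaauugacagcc
miR-10a-5p: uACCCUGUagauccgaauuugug
miR-101a-3p: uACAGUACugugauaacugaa
miR-181a-5p: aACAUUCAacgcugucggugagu
Below control were 3 members of the let-7 family, set here beside let-7a-5p and let-7i-5p, relatives that were not selected.
let-7b-5p: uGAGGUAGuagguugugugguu
let-7c-5p: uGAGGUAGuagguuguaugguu
let-7g-5p: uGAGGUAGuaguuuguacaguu
let-7a-5p: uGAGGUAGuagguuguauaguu
let-7i-5p: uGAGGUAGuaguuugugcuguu
The other miRNAs below control with a sequence in the table were the G- and C-rich miR-2137 and miR-6240.
miR-2137: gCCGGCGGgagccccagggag
miR-6240: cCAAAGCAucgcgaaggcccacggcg
No seed was shared by a miRNA above control and a miRNA below control among these 17, and the only seed shared between selected miRNAs was that of let-7b-5p, let-7c-5p and let-7g-5p.

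The smallest library, control 4 h, held 2043220 counts and the largest, SE 4 h, held 5405357. miR-486b-5p, abundant in red cells, took between 62.5% and 76.1% of the counts. Low counts gathered around a value of 33.1 to 60.2 reads in 6 of the 7 libraries and of 102 reads in control 4 h, read here as the copies sequenced from 1 captured molecule. On that scale, 50 CPM stood for 0.852 molecules in control 4 h and for between 3.10 and 5.66 molecules in the other acute libraries. On this reading, a miRNA near 50 CPM rests on a few captured molecules, and its level in control 4 h can be 0 from sampling alone. The scale is an estimate that was not tested. It gives values under 1 molecule for some counted miRNAs, such as 0.0098 for miR-100-5p in control 4 h.

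The 3 SE levels lay above the 3 control levels for 13 of the 137 miRNAs (9.49%) and below them for 10 (7.3%), or 23 in all (16.8%). These shares are the rule's own counts, and no test is read from them. The median log2 fold change of all 137, as 3 SE against 3 control libraries, was 0.14 under TMM and -0.15 when libraries were scaled by their size alone. The split followed that shift: with library size alone, 5 miRNAs lay above and 20 below. All 10 miRNAs found below control under TMM were among these 20, whereas 8 of the 13 found above (miR-100-5p, miR-101a-3p, miR-10a-5p, miR-181a-5p, miR-182-5p, miR-1839-5p, miR-192-5p and miR-21a-3p) were lost, their SE and control levels then overlapping. In a test of the whole table, edgeR's quasi-likelihood test called 0 of 137 (0%) at an adjusted p under 0.05, and the lowest adjusted p was 0.0882. The spread between libraries of a side gave a biological coefficient of variation of 0.587. At an unadjusted p under 0.05 the same test counted 17 miRNAs, 11 higher and 6 lower.

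**Figure D1:**
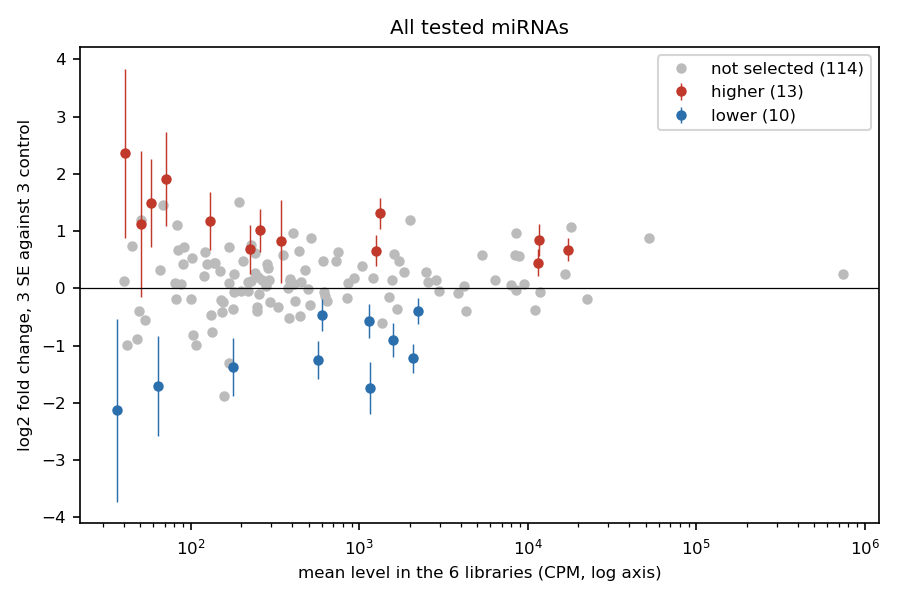
Log2 fold change of the 3 SE against the 3 control libraries (vertical axis) for each of the 137 tested miRNAs, against its mean level in CPM (horizontal log axis); bars are standard errors of the fit, drawn for the selected miRNAs only. The 13 miRNAs above control (red) had mean levels of 40.9 to 17287 CPM and the 10 below (blue) of 36.4 to 2245 CPM. The levels of all 137 ran from 36.4 to 738918 CPM.

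The widest gap above control was that of miR-298-5p, whose hairpin (Mir298, chr2:174267504-174267585, minus strand) lies outside any annotated host gene and close to that of miR-296. Its SE levels were 85.3, 91.2 and 80.2 CPM and its control levels were 33.9, 29.9 and 27.6 CPM. The lowest SE library was thus 2.37 times the highest control library, and within each side the levels lay close together. These levels stood for an estimated 9.65, 6.40 and 4.98 molecules in SE and 0.577, 2.14 and 1.98 molecules in control. miR-298-5p passed the 50 CPM filter through SE libraries alone. miR-106b-5p, which is cut from an intron of Mcm7 (chr5:138165737-138165818, minus strand) and belongs to the growth-associated miR-17 seed family, had SE levels of 77.3, 54.4 and 74.2 CPM. Its control levels were 0, 10.7 and 28.9 CPM, with no count at 4 h, so it too passed the filter through SE libraries alone. At 4 h the SE level was 44.9 times a floor of 3 counts in control. That floor is less than 1 estimated molecule there, so this ratio is not a lower bound. At 8 h and 24 h the SE level was 5.10 and 2.57 times that of control.

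miR-182-5p, from the sensory miR-183/96/182 cluster (chr6:30165918-30165992, minus strand, with no annotated host gene), combined a wide gap with many counts. It stood at 2243, 1976 and 1426 CPM in SE and at 721, 895 and 657 CPM in control. The lowest SE level was 1.59 times the highest control level under TMM, though not under library size alone, with SE at 3.11, 2.21 and 2.17 times the control of the same time and a log2 fold change of 1.31 ± 0.27 (standard error of the fit, 3 libraries a side). Its cluster partners were rarely counted: miR-183-5p had 6.34, 75.2 and 6.78 CPM in SE and 0, 11.8 and 0 CPM in control, and miR-96-5p was at 0 in all 6 libraries.

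miR-30a-3p, the lesser strand of the miR-30a hairpin (chr1:23272269-23272339, plus strand), had levels of 154, 166 and 224 CPM after SE against 59.7, 96.7 and 83.1 CPM in control. The major strand, miR-30a-5p, was at 12270.0, 11572 and 7979 CPM in SE and 5513, 8763 and 7103 CPM in control, and the sides overlapped because SE 24 h lay below control 8 h. miR-30e-3p differs from miR-30a-3p at 1 base and has the same seed. Its levels of 114, 79.9 and 87.4 CPM in SE and 124, 78.2 and 117 CPM in control overlapped, with the highest value in control 4 h.

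miR-532-5p, from an intron of the chloride channel gene Clcn5 on the X chromosome (chrX:7248402-7248497, minus strand), was at 324, 366 and 349.8 CPM in SE and 116, 205 and 192 CPM in control. The SE levels varied by 1.13-fold among themselves and the control levels by 1.76-fold. miR-133b-3p, a muscle miRNA whose hairpin lies in an exon of the long non-coding gene Gm28653 (chr1:20682769-20682887, plus strand), was at 128, 123 and 86.7 CPM in SE and 56.8, 16.7 and 16.7 CPM in control. Its estimated molecules were 14.5, 8.62 and 5.37 in SE and 0.968, 1.20 and 1.20 in control. Its closest relative by name, miR-133a-3p, which is also a muscle miRNA, was at 1104, 1439 and 180.1 CPM in SE and 888, 793 and 75.5 CPM in control. Both were highest in SE libraries of 4 h or 8 h, but miR-133a-3p overlapped between the sides because SE 24 h lay below control 4 h and control 8 h.

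**Figure D2:**
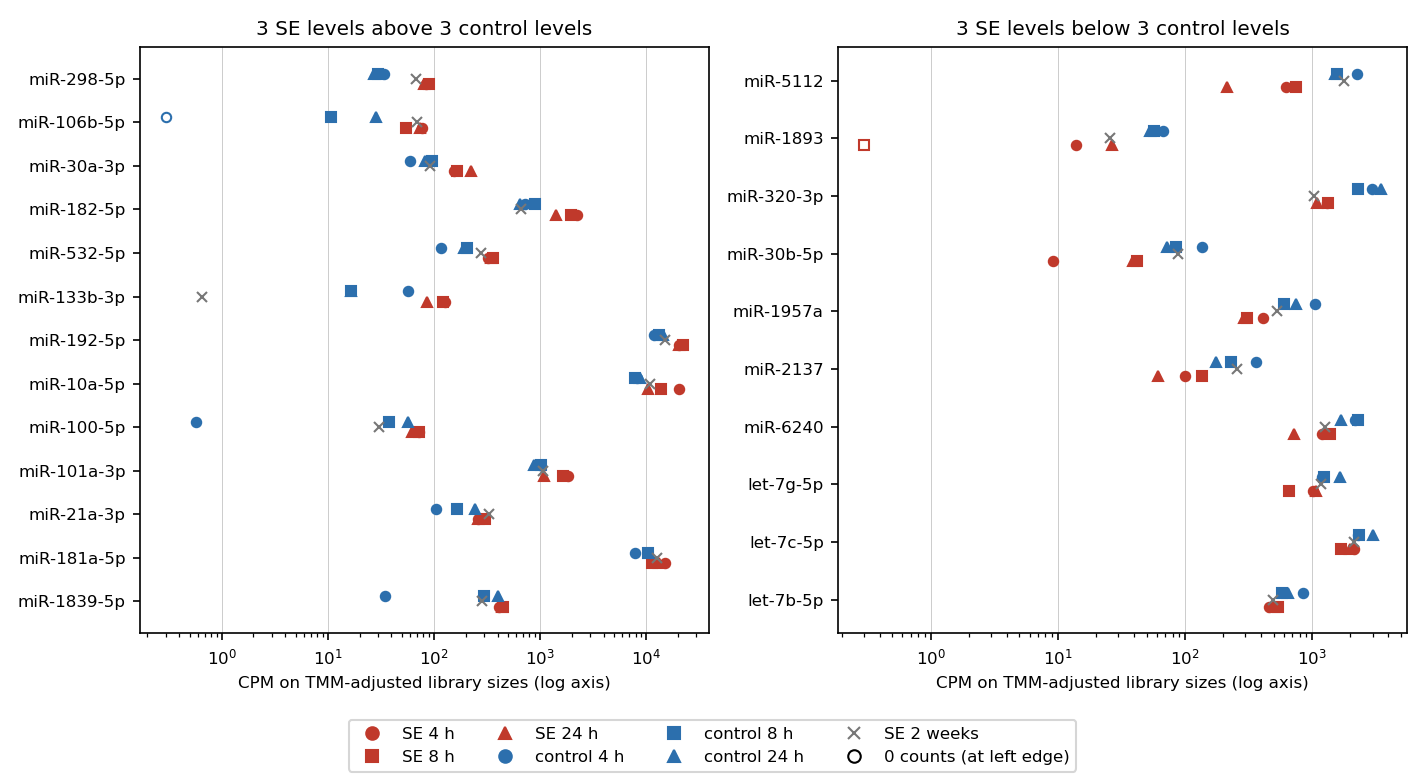
Level of each selected miRNA in CPM (log axis) in the SE libraries (red), the control libraries (blue) and the SE library of 2 weeks (grey crosses), with 1 marker shape for each time-point and open markers at the left edge for 0 counts. Each row shows the red markers all to the right (left panel) or all to the left (right panel) of the blue ones, with the widest gap at the top, 2.37-fold for miR-298-5p and 2.03-fold for miR-5112.

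miR-192-5p was abundant and varied little within each side. This miRNA of liver, gut and kidney (chr19:6264844-6264932, plus strand, no host gene) was at 20720.2, 22428 and 20670.3 CPM in SE and 12049.8, 13410.2 and 14443 CPM in control. The SE levels agreed within 1.09-fold and the controls within 1.20-fold, and the log2 fold change was 0.68 ± 0.21. Under library size alone its sides overlapped. miR-215-5p shares its seed, with 3 mismatched bases, and was at 7272, 8318 and 9576 CPM in SE and 7932, 8496 and 9274 CPM in control, so its sides overlapped. miR-194-5p, cut from the hairpin next to miR-192 and under the 50 CPM filter, was at 36.2, 38.2 and 37.8 CPM in SE and 0, 0 and 11.4 CPM in control.

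miR-10a-5p, from the Hoxb cluster (chr11:96317165-96317274, plus strand), was at 20603, 13870.4 and 10413 CPM in SE and 8191, 7976 and 8804 CPM in control. The controls were nearly level, and SE came down from 4 h to 24 h. miR-10b-5p, which differs from it at 1 base and shares its seed, was at 90114, 62887 and 49659.9 CPM in SE and 50762, 35089.7 and 24971 CPM in control. Its sides overlapped because SE 24 h lay just under control 4 h. Reads were aligned with up to 2 mismatches, so the authors' counting could split reads between these relatives, and the level of each is uncertain to that extent. The same holds for miR-30a-3p with miR-30e-3p, for miR-101a-3p with miR-101b-3p and for the let-7 family. miR-133a-3p and miR-30b-5p had no sequence here. Whether reads were split between miR-133b-3p and miR-133a-3p, or between miR-30b-5p and its relatives, was therefore not examined.

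miR-101a-3p, a regulator of the histone methyltransferase Ezh2 whose hairpin lies in an exon of the non-coding gene E130102H24Rik (chr4:101346945-101347027, minus strand), was at 1862, 1645 and 1105 CPM in SE and 1013, 1031 and 885 CPM in control. Under each of the other scalings tried, its sides overlapped. miR-101b-3p was at 639, 513 and 985 CPM in SE and 418, 434 and 677 CPM in control, and overlapped, since SE 4 h and SE 8 h lay below control 24 h. miR-181a-5p, a miRNA of lymphocytes and brain with 2 hairpins (Mir181a-1, chr1:137966455-137966541, plus strand, and Mir181a-2, chr2:38852735-38852810, plus strand), was at 15240.2, 11328 and 13242 CPM in SE and 7995, 10561 and 10655 CPM in control. Only SE 4 h and SE 24 h stood well above the controls, since SE 8 h exceeded control 24 h by 1.06-fold. Its cluster partner and seed relative miR-181b-5p was at 984, 724 and 964 CPM in SE and 849, 882 and 759 CPM in control, which overlapped.

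The remaining miRNAs above control were furthest from control at 4 h, where the control library had the fewest counts. miR-100-5p, a miRNA known to target mTOR (chr9:41531425-41531504, plus strand), was at 73.3, 73.04 and 62.05 CPM in SE and 0.574, 37.6 and 57.02 CPM in control, the control 4 h value being a count of 1. miR-21a-3p, the lesser strand of the injury-associated miR-21 hairpin, which overlaps an exon of Vmp1 (chr11:86584067-86584158, minus strand), was at 261, 303 and 262 CPM in SE and 106, 165 and 243 CPM in control. For both, SE and control almost met at 24 h, where SE was 1.09 and 1.08 times control. The major strand, miR-21a-5p, was at 9160.5, 8263 and 11691 CPM in SE and 6618, 8194 and 12939 CPM in control, with control 24 h the highest of the 6.

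miR-1839-5p had the narrowest gap above control, 1.04-fold. It was at 417, 448 and 440.4 CPM in SE and 35.01, 301 and 403 CPM in control, so that SE was 11.9 times control at 4 h and 1.09 times at 24 h. Its mature sequence also lies within a transcript that GENCODE types as a small Cajal body RNA, a class of RNA that guides modification of spliceosomal RNA, and within an exon of the non-coding gene 2900076A07Rik (chr7:81529916-81529988, plus strand).

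Below control, the widest gap was that of miR-5112. It was at 628, 753 and 216 CPM in SE and 2246, 1579 and 1527 CPM in control, and SE was 0.280, 0.477 and 0.141 times the control of the same time. miR-320-3p, whose hairpin (chr14:70443510-70443591, plus strand, no host gene) is processed without the nuclear enzyme Drosha, was at 1322, 1335 and 1105 CPM in SE and 2968, 2307 and 3506 CPM in control. The SE levels of miR-320-3p lay within 1.21-fold of each other and the nearest control was 1.73-fold higher. Its log2 fold change was -1.22 ± 0.25, and the other strand, miR-320-5p, which was under the filter, was at 11.04, 24.4 and 22.1 CPM in SE and 178, 24.1 and 35.2 CPM in control.

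miR-1957a, from an intron of the glucose transporter gene Slc2a1 (chr4:119129779-119129844, plus strand), was at 412, 310.0 and 292 CPM in SE and 1054, 598 and 755 CPM in control. miR-6240 (chr5:114851948-114852064, plus strand, no host gene) was at 1208, 1387 and 723 CPM in SE and 2168, 2306 and 1708 CPM in control. miR-2137, from an intron of Zfp185 (chrX:72992079-72992144, plus strand), was at 99.6, 136 and 61.7 CPM in SE and 366, 229.8 and 175 CPM in control. All 3 had their closest approach between sides at 1.23- to 1.45-fold, and all 3 were lowest in SE 24 h. miR-1893 rested on few counts, with levels of 13.9, 0 and 26.7 CPM in SE and 67.1, 57.3 and 53.2 CPM in control. At 8 h, where SE had no count, the control level was 69.5 times a floor of 3 counts in SE. That floor is less than 1 estimated molecule in SE 8 h, so this ratio is not a lower bound either.

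These miRNAs have a feature that the selection did not use. Of the 10 below control, 5 (50%) are entries of miRBase with no named arm and numbers of 1000 or above, against 13 entries without an arm (9.49%) and 16 entries numbered 1000 or above (11.7%) among all 137. Among the 13 above control, 0 lacked an arm and only miR-1839-5p had such a number. All 16 numbered 1000 or above had a median log2 fold change of -0.83, with 12 negative, beside a median of 0.14 with 53 of 137 negative over all tested. Under library size alone their median was -1.02 and that of all tested was -0.15. The 16 include the 5 that the rule selected as low and miR-1839-5p, so these medians are partly set by the rule. Of the entries not selected, miR-1198-5p, miR-1843a-5p and miR-1843b-5p had positive log2 fold changes under TMM (0.09, 0.10 and 0.44). The others ran from -1.87 (miR-5119) to -0.30 (miR-5108). Among those not selected, miR-5119 was at 94.9, 53.5 and 54.2 CPM in SE and 478, 76.99 and 188 CPM in control, and miR-6236 was at 911, 1657 and 695 CPM in SE and 1878, 1736 and 1361 CPM in control. Both overlapped by 1 library, and the miR-5119 levels of controls were far apart. The G and C content of miR-2137 and miR-6240 was 85.7% and 69.2%, whereas the median over the 116 tested miRNAs with a sequence was 46.6%. The medians were 47.9% over the 12 sequences above control and 45.5% over the 5 below, which include the 3 of let-7.

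let-7 miRNAs, which hold back growth-promoting mRNAs and are kept low in stem cells by Lin28, made up 3 of the 10 below control, or 3 of 9 family members tested, beside 10 of all 137 tested (7.3%). let-7g-5p, from an intron of Wdr82 (chr9:106178840-106178927, plus strand), was at 1017, 664 and 1076 CPM in SE and 1194, 1235 and 1662 CPM in control. let-7c-5p, with hairpins in an intron of Mir99ahg (chr16:77599657-77599750, plus strand) and in an exon of Lncppara (chr15:85706603-85706697, plus strand), was at 2141, 1683 and 1989 CPM in SE and 2289.8, 2358 and 3009 CPM in control. let-7b-5p, whose hairpin lies 622 bases from the latter (chr15:85707319-85707403, plus strand), was at 461, 544 and 501 CPM in SE and 855, 579 and 647 CPM in control. These were the 3 narrowest gaps below control, between 1.06- and 1.11-fold, and the log2 fold changes were -0.57 ± 0.29, -0.40 ± 0.23 and -0.47 ± 0.29.

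Of the 9 family members tested, 7 had a negative log2 fold change and the median was -0.39, beside 0.14 for all tested. The 3 selected members are among the 7, so this median is partly set by the rule. The members not selected had log2 fold changes of -0.39 (let-7a-5p), -0.52 (let-7d-5p), -0.07 (let-7e-5p), -0.19 (let-7f-5p), 0.06 (let-7i-5p) and 0.11 (miR-98-5p). let-7a-5p, which differs from let-7c-5p at 1 base, was at 3724, 2670.2 and 4799 CPM in SE and 5088, 4351 and 5218 CPM in control, where SE 24 h exceeded control 8 h. let-7d-5p was at 339.6, 261 and 339 CPM in SE and 508, 293 and 547 CPM in control. let-7f-5p was at 22151, 14424 and 26283 CPM in SE and 19029, 24444 and 28448 CPM in control, and let-7i-5p, the 1 member apart from miR-98-5p with a positive log2 fold change, was at 8160.4, 5202 and 11031 CPM in SE and 5789, 8056 and 9545 CPM in control. In 6 of the 9 members, let-7a-5p, let-7c-5p, let-7d-5p, let-7f-5p, let-7g-5p and let-7i-5p, SE 8 h was the lowest of the 6 libraries. Under library size alone the family median was -0.68 with 9 of 9 negative, and let-7a-5p, let-7d-5p and let-7e-5p also lay wholly below control.

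**Figure D3:**
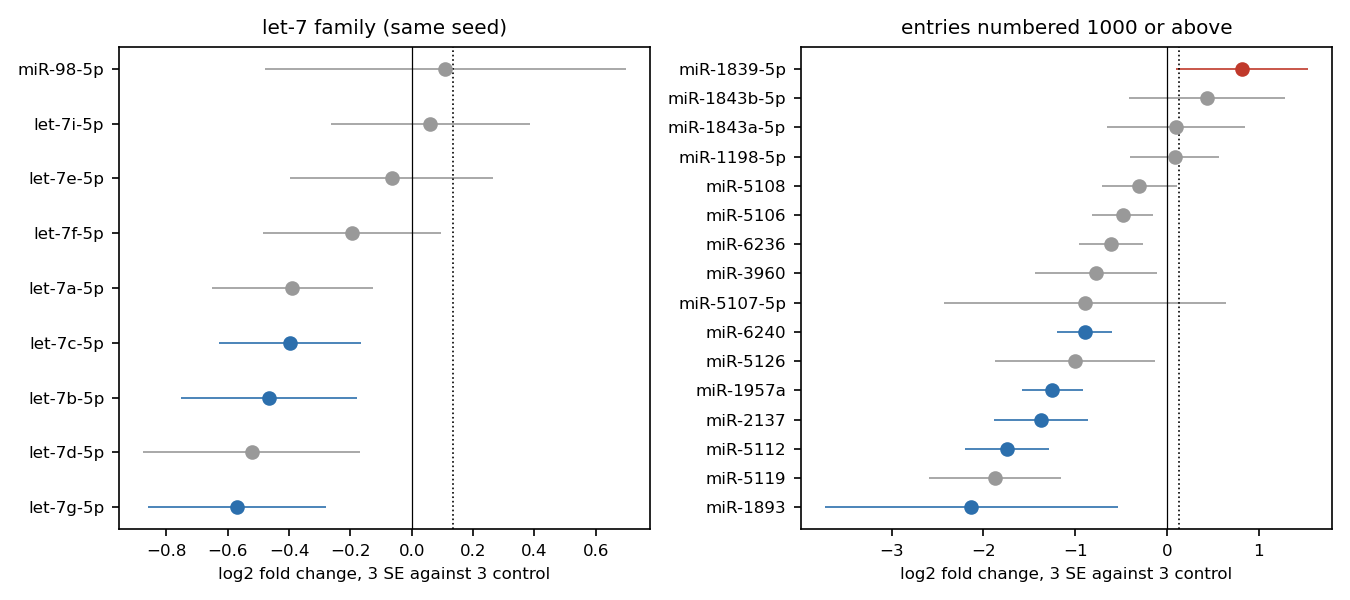
Log2 fold change of 3 SE against 3 control libraries, with the standard error of the fit, for the 9 members of the let-7 family (left) and the 16 tested entries numbered 1000 or above (right); blue marks miRNAs below control at every time, red those above and grey the rest, and the dotted line is the median of all 137 (0.14). In both panels most points lie to the left of the dotted line, with medians of -0.39 and -0.83. Both medians include the selected miRNAs, which were chosen on the levels of these same libraries.

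The miR-30 list, which pools both arms of its hairpins, held miR-30a-3p above control and miR-30b-5p below. These are different arms. The seed of miR-30a-3p (UUUCAGU) is not that of miR-30a-5p, miR-30c-5p and miR-30e-5p (GUAAACA). miR-30b-5p (chr15:68337415-68337510, minus strand), a broadly expressed member known in brain and heart, was at 9.16, 41.7 and 39.2 CPM in SE and 137, 85.8 and 71.97 CPM in control, with the lowest level in SE 4 h. Its neighbour on the same strand, miR-30d-5p, was at 2913, 2573 and 2446 CPM in SE and 2182, 2547 and 2634 CPM in control, which overlapped. miR-30c-5p was at 116, 137 and 168 CPM in SE and 126, 165 and 197 CPM in control, and miR-30e-5p was at 2005, 1328 and 1603 CPM in SE and 1089, 1638 and 1746 CPM in control. The median log2 fold change of the 7 tested family members, both arms together, was 0.11, with 4 positive and 3 negative.

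Cluster partners of miR-106b-5p also overlapped between the sides. miR-93-5p, from the same Mcm7 intron and with the same seed, was at 545, 560.4 and 668 CPM in SE and 632, 492 and 953 CPM in control. miR-25-3p was at 6479, 4561 and 8074 CPM in SE and 3143, 4786 and 4877 CPM in control, and the other strand of the miR-106b hairpin, miR-106b-3p, was at 237, 114 and 358 CPM in SE and 215, 194 and 241 CPM in control. Thus miR-106b-5p, counted in few estimated molecules, was the only product of this cluster selected.

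The distance from control differed between times. Taken against the control of the same time, and leaving out pairs with 3 counts or fewer, the median log2 ratio of the miRNAs above control was 1.33 at 4 h, 0.84 at 8 h and 0.52 at 24 h. All tested miRNAs had medians of 0.21, 0.12 and 0.04 at the same times. Of the 11 miRNAs above control that could be compared at all 3 times, 8 had their largest ratio at 4 h, 2 at 8 h (miR-298-5p and miR-133b-3p) and 1 at 24 h (miR-30a-3p). The miRNAs below control had medians of -1.26, -0.79 and -1.12, and 5 of the 9 that could be compared had their lowest ratio at 24 h. Control 4 h had the fewest counts and the most reads per molecule, and its part in the larger ratios at 4 h was not tested.

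**Figure D4:**
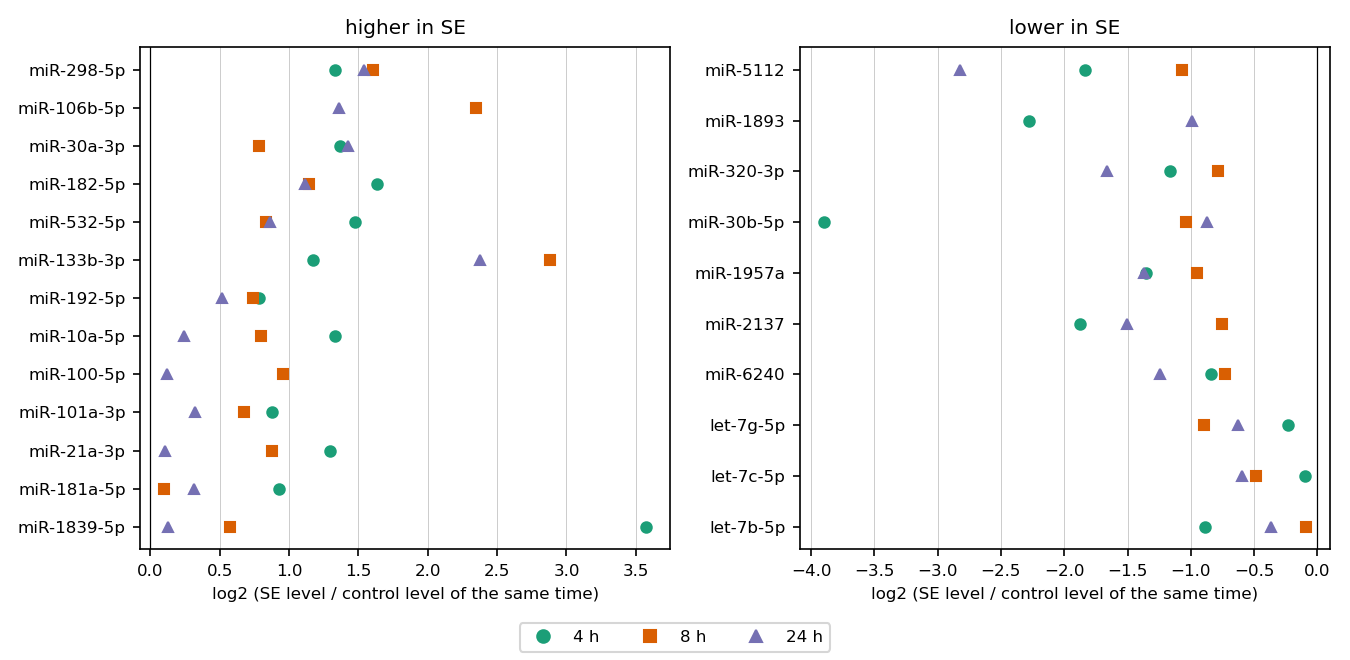
Log2 ratio of the SE level to the control level of the same time (4 h circles, 8 h squares, 24 h triangles) for the miRNAs above (left) and below (right) control; pairs in which a library had 3 counts or fewer are left out. On the left most circles lie furthest from 0, with medians of 1.33 at 4 h and 0.52 at 24 h, and on the right the triangles and circles do.

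Beyond the acute phase, the SE library of 2 weeks was set against the same 3 controls, which the 2 comparisons therefore share. miR-182-5p was at 665 CPM there and miR-133b-3p at 0.648 CPM, within the range of the controls and under every control respectively. miR-5112 was at 1775 CPM and miR-2137 at 258 CPM, both within the range of the controls. Also within the range of the controls were miR-30a-3p at 92.3 CPM, miR-100-5p at 30.4 CPM, miR-1839-5p at 284 CPM and miR-30b-5p at 88.8 CPM. Under the lowest control were miR-320-3p at 1047 CPM, miR-1893 at 25.6 CPM, miR-6240 at 1262 CPM, miR-1957a at 532 CPM, let-7b-5p at 494 CPM, let-7c-5p at 2131 CPM and let-7g-5p at 1189 CPM. The other miRNAs selected above control lay above the highest control, among them miR-192-5p at 15229.7 CPM and miR-298-5p at 68.02 CPM.

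By the study's compilation of reported tissue and brain cell enrichment, the selected miRNAs were of mixed class. The counts of each class and list stand beside 13 above (9.49%) and 10 below (7.3%) of all 137 tested. Of the 30 tested miRNAs classed as brain, 2 lay above control (miR-30a-3p and miR-101a-3p) and 3 below (let-7c-5p, let-7g-5p and miR-30b-5p), and their median log2 fold change was 0.15 beside 0.14 for all tested. Of the 24 classed as neuron, miR-182-5p and miR-133b-3p lay above and let-7b-5p, let-7c-5p, miR-30b-5p and miR-320-3p below, with a median of 0.11. The 16 astrocyte, 14 microglia and 7 oligodendrocyte miRNAs held 1 miRNA above control each, miR-100-5p, miR-181a-5p and miR-532-5p, and 1 below, let-7g-5p of the microglia class. None of the 5 blood, 6 digestion, 3 spleen, 2 kidney or 2 liver miRNAs tested was selected, and of 6 heart miRNAs only miR-133b-3p was. The 19 ubiquitous miRNAs held miR-10a-5p and miR-192-5p above control and let-7b-5p below. Among the other lists examined, 0 of 7 tested members of the Dlk1-Dio3 cluster, 0 of 5 of miR-23/27/24, 0 of 4 of the miR-15 and miR-16 family, 0 of 3 of the miR-148 family and 0 of 3 erythroid miRNAs were selected, and their medians were 0.96, 0.39, 0.20, 0.60 and 0.62. miR-29a-3p and miR-143-3p, the only tested members of their lists, were not selected either. The lists of miR-17-92 with its paralogues, miR-181, miR-10 and miR-99 with miR-100 each had 1 member above control, of 7, 7, 2 and 4 tested, as did the muscle list (miR-133b-3p) and the liver and gut list (miR-192-5p), of 3 tested each.

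Markers of likely source tissues were summed for each library. The 7 red cell miRNAs, with miR-486b-5p and miR-451a among them, summed to between 555562 and 1024890 CPM in SE and between 565891 and 910734 CPM in control, and none of the 5 tested was selected. Almost all of this sum was miR-486b-5p, and miR-451a was at 1.72 to 20.5 CPM in the 6 libraries. The TMM factor of SE 24 h was 0.754, so its adjusted levels can exceed the total that plain CPM allows. The 6 platelet and leukocyte miRNAs summed to between 5963 and 9743 CPM in SE and between 4806 and 10516 CPM in control, and none of the 5 tested was selected. Neither sum separated SE from control. The 3 liver miRNAs summed to between 20709 and 22466 CPM in SE and between 12050 and 14454 CPM in control, almost all of it miR-192-5p. miR-122-5p, the defining miRNA of hepatocytes, was at 13.9, 0 and 0.357 CPM in SE and at 0 in the 3 controls. The 3 of 7 muscle miRNAs that were counted summed to between 266.7 and 1562 CPM in SE and between 116.8 and 945 CPM in control, and the 7 neuron miRNAs to between 1427 and 1872 CPM in SE and between 1142 and 2286 CPM in control. Most of the neuron sum was miR-128-3p, at 1332, 1181 and 1768 CPM in SE and 1072, 1431 and 2273 CPM in control. The other neuron miRNAs were under the filter. Of these, miR-132-3p was at 46.03, 46.4 and 13.6 CPM in SE and at 0 in the 3 controls. miR-9-5p overlapped, at 31.9, 78.0 and 39.6 CPM in SE and 70.0, 25.7 and 0.253 CPM in control. The neuron-defining miR-124-3p was counted only in SE 24 h, at 17.5 CPM. The part of liver, muscle or red cell release in these levels was not tested.

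The rule draws its line among close values. Just inside it lay miR-1839-5p, miR-181a-5p and miR-21a-3p, with gaps of 1.04-, 1.06- and 1.07-fold above control, and let-7b-5p, let-7c-5p and let-7g-5p below. Just outside it lay miR-143-3p, a vascular smooth muscle miRNA, at 41308, 19631 and 12929 CPM in SE and 12938, 11666 and 10544 CPM in control, where SE 24 h was 0.999 times control 4 h. miR-152-3p was at 448, 269 and 139 CPM in SE and 90.1, 139.6 and 72.7 CPM in control, and miR-151-3p was at 3155, 2377 and 2667 CPM in SE and 2366, 1960.5 and 2412 CPM in control. On the lower side these were miR-221-3p, at 351, 388 and 414 CPM in SE and 446, 405 and 488 CPM in control, miR-103-3p, at 219, 195 and 245 and 285, 231 and 308 CPM, and miR-425-5p, at 92.3, 129 and 177 and 179.6, 164 and 183 CPM. With SE and control asked to be at least 1.5-fold apart, 6 miRNAs above and 4 below remained: miR-298-5p, miR-106b-5p, miR-30a-3p, miR-182-5p, miR-532-5p and miR-133b-3p, and miR-5112, miR-1893, miR-320-3p and miR-30b-5p. Of these, miR-298-5p and miR-106b-5p passed the 50 CPM filter only through SE libraries. In turn, miR-1893 and miR-30b-5p passed it only through control libraries. For such miRNAs the filter itself favours a wide gap. With exact Poisson 95% intervals of estimated molecules, miR-192-5p above and miR-320-3p and miR-5112 below were the only ones whose intervals did not overlap between any SE and any control library.

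**Figure D5:**
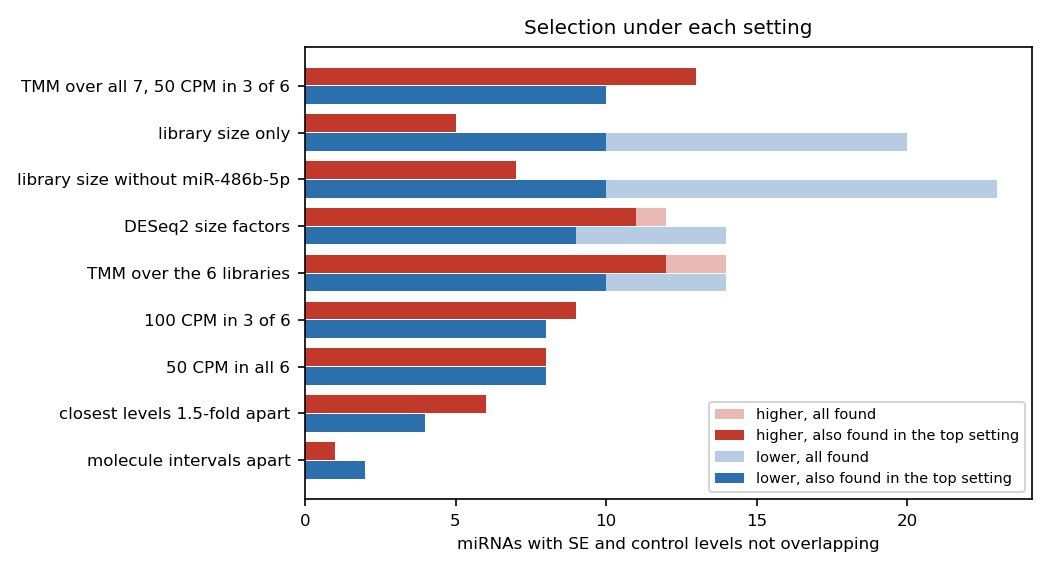
Number of miRNAs with all SE levels above (red) or all below (blue) the control levels under each setting; the solid part of a bar counts those also found under the top setting, TMM with 50 CPM in at least 3 of the 6 libraries (13 and 10). Scaling by library size leaves 5 above control and raises the number below to 20, with all 10 kept, and intervals of estimated molecules leave 1 and 2.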

How the data were processed

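Small RNA bound to Ago2 was sequenced from 7 plasma pools, and 6 of them were compared here, 3 SE and 3 control, as mapped by their titles. In the Chimera software the authors removed adapters, kept reads of miRNA size and matched these by BLASTn to miRBase, allowing 2 mismatches, and deposited raw counts for each of 640 mature miRNAs. The genome build is not given in the sources used here, so loci are those of GENCODE mouse release 21 (GRCm38), matched by name. The deposited counts were scaled with TMM factors over all 7 libraries in edgeR 4.0.16 (R 4.3.3, limma 3.58.1), and a miRNA was kept if 3 or more of the 6 libraries reached 50 CPM. A fold against 0 counts was taken against a floor of 3 counts, which was 0.696 to 1.72 CPM in the 6 libraries. Intervals and floors cover counting error only, since reads carry no molecular identifier.

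The 3 SE and 3 control libraries were compared by edgeR's quasi-likelihood test with Benjamini-Hochberg adjustment at 0.05 and a prior count of 0.125. This takes the spread between time-points in place of replicates. The smallest p that an exact permutation test of 3 against 3 allows is 0.1. The fit was tested on simulated data. Alternatives were other scalings and filters, libraries or time-points left out, a time block, other tests (DESeq2 1.42.0 among them) and stricter rules of separation. Reads per molecule came from the peak of a smoothed density (bandwidth 0.15) of log counts between 6 and 300. Every selected miRNA is given with its levels, with relatives by seed, hairpin or a cluster within 10 kb and the 3 nearest to selection on each side. The members, lists and settings were chosen with earlier results of these data known. Sequences were read with pandas 2.3.3 and figures drawn with matplotlib 3.10.9 in Python 3.11.15.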

Additional observations from a re-analysis of the deposited data

Results flagged for a closer look

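The SE library of 2 weeks, which is outside the comparison of the 6 acute libraries, lay above the highest of the 3 controls for the miRNAs named here. They were selected as high against these same controls, so nothing is read from how many they are. It held 15229.7 CPM of miR-192-5p, 12844 CPM of miR-181a-5p, 10942 CPM of miR-10a-5p and 1071 CPM of miR-101a-3p. The same library held 333 CPM of miR-21a-3p, 282 CPM of miR-532-5p, 68.99 CPM of miR-106b-5p and 68.02 CPM of miR-298-5p. It is a single library and has no control of its own time.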

How the results depend on the processing

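The counts of miRNAs above and below control moved with the scaling, the filter and the libraries used. Against 13 and 10, library size alone gave 5 and 20, library size without miR-486b-5p gave 7 and 23, and DESeq2's size factors (12 and 14) and TMM over the 6 libraries (14 and 14) gave similar numbers. Membership changed as well. miR-101a-3p was lost above control under each of these scalings, and miR-1839-5p under all but TMM over the 6 libraries. miR-1893 was lost below control under DESeq2's size factors. let-7a-5p, miR-103-3p and miR-92a-3p were added below control under each of them. Filters gave 28 above at 10 CPM, 8 above at 50 CPM in all 6, and 32 and 16 at 1 count in any. Lost at 50 CPM in all 6 were miR-100-5p, miR-106b-5p, miR-133b-3p, miR-1839-5p and miR-298-5p above control, and miR-1893 and miR-30b-5p below. Leaving out each library in turn gave between 15 and 33 above and between 11 and 22 below, and 0 calls; all 23 stay selected then by construction. The highest number above, 33, was without SE 24 h (16 below), and the highest below, 22, without control 8 h; without control 4 h or control 24 h there were 24 and 25 above, and without SE 8 h there were 20. Without both libraries of 4 h, 8 h or 24 h the numbers were 27 and 16, 23 and 24, and 48 and 21. A gap of 1.5-fold left 6 and 4, intervals of molecules left 1 and 2, and the same direction at each time, a looser rule, gave 35 and 22.

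The quasi-likelihood test called 0 either way, and with the time-point as a replicate block also 0 and 0. It called 1 higher (miR-182-5p) and 2 lower (miR-320-3p and miR-5112) when 50 CPM was asked in all 6, 1 and 2 at 1 count in any (miR-143-3p, miR-184-3p and miR-5112), 1 and 1 without both libraries of 24 h (miR-182-5p and miR-5112), and 3 lower under library size without miR-486b-5p (miR-1957a, miR-320-3p and miR-5112). The likelihood ratio test and DESeq2's Wald test each called 1 and 2, the same miRNAs as at 50 CPM in all 6, limma-voom called 0, a BCV set to 0.1 called 57 and 32, and unadjusted p gave 11 and 6. Of 318 recomputed log2 fold changes of 29 named miRNAs, 314 kept direction and side of the threshold, 3 passed it, and 1, miR-151-3p under library size without miR-486b-5p, turned to -0.0532. For the selected miRNAs, leaving out a library or adding a time block could not reverse the direction. With 0 calls in the main test, no call could be lost. A prior count of 2 kept the adjusted p of the main fit. The 314 are therefore not read as a check of the results. The cause of the shifts between settings was not tested.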

Other observations

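A filter of 10 CPM in at least 3 of the 6 libraries tested 246 miRNAs and added 15 above control and 4 below. In all, 28 then lay above and 14 below, or 42 of 246, beside 23 of 137 (16.8%) at 50 CPM. miR-1306-5p, miR-132-3p, miR-195a-5p and miR-672-5p had every control under 10 CPM and passed this filter through SE libraries alone. No library held more than an estimated 17.1 molecules of any of them, and control 4 h, with the fewest counts, was at 0 for all of the 15 but miR-29c-3p, miR-671-3p and miR-676-5p. miR-132-3p, an activity-regulated miRNA of neurons, was at 46.03, 46.4 and 13.6 CPM in SE and at 0 in the 3 controls and at 2 weeks. miR-541-5p, of the Dlk1-Dio3 cluster, was at 50.3, 243 and 47.8 CPM in SE and 0, 15.3 and 40.5 CPM in control, and miR-411-5p of the same cluster was at 45.3, 76.3 and 20.7 CPM in SE and 0, 15.5 and 0 CPM in control. miR-29c-3p, classed with astrocytes, was at 56.8, 58.5 and 28.9 CPM in SE and 0.574, 2.78 and 27.6 CPM in control. miR-195a-5p and miR-672-5p were also at 0 in all 3 controls, with 29.8, 18.1 and 33.9 CPM and 19.96, 65.1 and 28.5 CPM in SE. Both strands of the miR-664 hairpin lay above control, miR-664-3p with 19.7, 26.9 and 15.3 CPM in SE and 0, 0 and 14.7 CPM in control. The 4 below control were miR-1195, miR-339-3p, miR-8101 and miR-8112, of which miR-8112 was at 9.16, 16.5 and 11.1 CPM in SE and 96.4, 54.3 and 24.6 CPM in control. These miRNAs were chosen after their values were seen.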
